A study of Mus musculus with 32 samples.

Results

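The genes described here are the mouse Zfp (zinc finger protein) genes whose symbol is Zfp followed by 3 digits and whose mean raw count over the 32 libraries was 200 or more. The count table holds 280 genes with such a symbol among 17757 genes, and 118 of them reached the minimum, while 162 stayed under it. The mean raw count was the only measured value in this rule, and the gene set was put forward with earlier results of the same data known. Just outside the minimum were Zfp213 with a mean count of 196 and Zfp157 with 197, and just inside were Zfp984 with 200.03 and Zfp560 with 202. The mean counts of the 118 genes ran from 200.03 to 6241 with a median of 455, and the lowest count of any of them in any library was 31.

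C2H2 zinc finger proteins form one of the largest families of DNA-binding proteins in mammals. Each finger folds around a zinc ion held by a pair of cysteines and a pair of histidines, and most members carry several fingers in a row, which read DNA and in some cases RNA. Many members also carry a KRAB domain at the N terminus, which recruits Trim28 (KAP1) and through it the histone methyltransferase Setdb1 to silence retroelements and nearby genes. DHPS, deoxyhypusine synthase, catalyses the first step of hypusination of eIF5A, a translation factor that assists the ribosome at sequences that are slow to join, runs of proline among them.

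The study profiled polysomes of 4T1 spheroids. 4T1 is a mouse triple-negative mammary carcinoma line, and the spheroids grew for 5 days in lung-like medium, which mimics the nutrients of lung interstitial fluid. ASP shSCR spheroids carried a scramble hairpin and received 700 µM aspartate, and NoASP shSCR spheroids carried the same hairpin without added aspartate. ASP shGRIN2D and ASP shDHPS spheroids received 700 µM aspartate and carried a hairpin against Grin2d, which encodes an NMDA receptor subunit, or against Dhps. All cells had a lentiviral hairpin and had been selected with puromycin, so the lines were mixed populations of transduced cells. Each condition had 4 spheroid pellets, described as independent, and each pellet gave a polysomal library (mRNA on more than 3 ribosomes) and a sub-polysomal library (fewer than 3). The total count per library ran from 12870563 to 25639437 with a median of 18168765. The ratio below is the log2 of polysomal over sub-polysomal abundance in a pellet, and a positive ratio means more of the mRNA on polysomes relative to the other genes. Library scaling removes any change shared by all mRNAs, and in pellets of whole spheroids fewer cells of a kind and less RNA per cell cannot be told apart.

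Dhps was checked first. In the sub-polysomal fraction it stood at 42.9, 33.2, 43.3 and 41.3 CPM (counts scaled to library size) in the ASP shSCR pellets and at 9.98, 10.8, 10.2 and 8.96 CPM in the ASP shDHPS pellets. It fell by 2.01 on the log2 scale (SE 0.16, edgeR quasi-likelihood test, adjusted p = 1.11e-08) with no overlap between the groups. In the polysomal fraction Dhps fell by 1.64 (SE 0.23, edgeR adjusted p = 0.0167, which rose to 0.0546 without replicate 2 of ASP shSCR and to 0.0963 and 0.111 without replicates 1 and 3 of ASP shDHPS). Grin2d had a mean count of only 65.5, and its sub-polysomal level in ASP shGRIN2D was 2.59, 1.87, 2.62 and 2.89 CPM against 4.29, 3.74, 6.91 and 3.32 CPM in ASP shSCR. These groups did not overlap, but the log2 difference of −0.88 (SE 0.29) had an edgeR adjusted p of 0.232, and the polysomal difference of −1.14 (SE 0.33) had an adjusted p of 0.263, so the Grin2d knockdown was not past the threshold of 0.05 in either fraction.

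The epithelial label was checked against markers. Of 9 epithelial markers 8 were measured, all over 1 CPM, with Krt8 the most abundant at 1361 CPM, and their summed level ran from 1978 to 7329 CPM over the libraries. Of 6 leukocyte markers 3 were measured, led by Cd68 at 11.6 CPM, and of 4 endothelial markers only Pecam1 was measured, at 0.21 CPM. Of 5 fibroblast markers Thy1, at 138 CPM, and Pdgfra were measured. The other markers on these lists, among them Krt5, Cd3e, Cdh5, Dcn and Pdgfrb, were not analysed here.

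One library stood apart. On an axis drawn from 11046 genes between the mean sub-polysomal library at 0 and the mean polysomal library at 1, replicate 1 of ASP shSCR had its polysomal library at 0.372, with the other 15 polysomal libraries at 0.777 to 1.27 and the 16 sub-polysomal libraries at −0.11 to 0.16. It belongs to the control of all 3 comparisons with ASP shSCR, so the main counts and medians of those comparisons are also given without it.

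Coding sequence for one finger is shown for 6 of the genes, because they lie near the ends of the Dhps comparison and their base composition differs. From each end of the order by difference between ASP shDHPS and ASP shSCR, the first 3 genes were taken whose predicted protein holds a finger with the usual linker to the following finger, coded within one exon. Zfp292 and Zfp644 at the low end and Zfp622 and Zfp444 at the high end had none by this pattern. The first 3 sequences are from the low end. Capitals mark the codons of the zinc-holding cysteines and histidines, in GENCODE M21 transcripts on GRCm38.

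Zfp984: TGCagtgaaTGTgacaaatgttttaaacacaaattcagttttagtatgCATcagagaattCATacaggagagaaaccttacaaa
Zfp948: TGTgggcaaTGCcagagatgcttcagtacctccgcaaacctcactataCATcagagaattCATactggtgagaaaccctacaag
Zfp386: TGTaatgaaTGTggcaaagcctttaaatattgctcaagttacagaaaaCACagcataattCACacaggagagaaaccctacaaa
Zfp771: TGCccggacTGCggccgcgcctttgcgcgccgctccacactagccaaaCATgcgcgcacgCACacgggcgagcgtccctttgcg
Zfp282: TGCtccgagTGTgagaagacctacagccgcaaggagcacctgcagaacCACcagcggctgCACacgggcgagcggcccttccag
Zfp668: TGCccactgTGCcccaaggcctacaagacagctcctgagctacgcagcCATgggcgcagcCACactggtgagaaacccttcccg

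Each stretch is 84 bases long and lies in coding sequence within one exon. Zfp984 is at chr4:147755508-147755591 (minus strand, exon 6 of 6), Zfp948 at chr17:21587193-21587276 (plus, exon 6 of 6) and Zfp386 at chr12:116059804-116059887 (plus, exon 3 of 3). Zfp771 is at chr7:127253856-127253939 (plus, exon 3 of 3), Zfp282 at chr6:47905094-47905177 (plus, exon 8 of 8) and Zfp668 at chr7:127868064-127868147 (minus, exon 2 of 3). The search pattern set the places of the zinc-holding codons, so these are the same in all 6. The stretches differ in base composition. The GC content of the stretch was 32.1%, 46.4% and 35.7% in Zfp984, Zfp948 and Zfp386, and 71.4%, 65.5% and 63.1% in Zfp771, Zfp282 and Zfp668. Any pair of the 3 from the low end was identical at 49 to 59 bases, any pair of the 3 from the high end at 45 or 46, and any pair across the ends at 36 to 46.

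In ASP shSCR the 118 genes sat slightly lower on polysomes than other genes. Their median log2 ratio, averaged over pellets, was −0.09 ± 0.19 (SD, n = 4), against 0.16 ± 0.08 for the 8778 genes with a mean count of 200 or more. The gene medians in the 4 pellets were 0.02, −0.36, −0.10 and 0.06. Of the 118 genes, 54 had a mean ratio above 0. The spread among them was wide: the mean ratios ran from −2.18 to 1.55, and the median SD over the pellets of a gene was 0.37.

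At the high end were Zfp146 with 1.55 ± 0.42, Zfp207 with 1.47 ± 0.23 and Zfp143 with 1.25 ± 0.51 (log2 ratio, SD, n = 4). Without replicate 1 of ASP shSCR, Zfp830, with 1.38 (1.17 with all 4 pellets), was above Zfp143, with 1.35. Zfp207 (BuGZ) binds spindle microtubules and the checkpoint protein Bub3, and Zfp143 is an activator that binds promoters. At the low end were Zfp362 with −2.18 ± 1.16, Zfp523 with −1.75 ± 1.21 and Zfp395 with −1.73 ± 0.24. The first 2 depended on the library that stood apart: without replicate 1 of ASP shSCR the mean ratio was −2.73 for Zfp362 and −2.35 for Zfp523, and Zfp580, with −2.09 (−1.55 with all 4 pellets), was then below Zfp395, as were Zfp358, Zfp598 and Zfp651. For Zfp395 the 4 ratios of −2.02, −1.68, −1.45 and −1.75 were all low, and their mean without replicate 1 was −1.63.

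By level, Zfp706 led with a mean of 342 CPM over the 32 libraries, and Zfp207 followed with 156 CPM. Per kilobase of transcript, as a mean over both fractions, the order was Zfp207 with 99.95, Zfp706 with 77.5, Zfp414 with 42.3, Zfp330 with 42.0 and Zfp598 with 33.4 CPM per kb. Each value divides by the length of one annotated transcript, which for Zfp207 was 1562 bases with only 19 after the coding sequence. A longer transcript would lower the Zfp207 value. The order differed by fraction: in ASP shSCR, Zfp706 led the sub-polysomal libraries with 106 CPM per kb, ahead of Zfp414 with 73.0, and Zfp207 stood at 49.6, while Zfp207 led the polysomal libraries with 139.6 ahead of Zfp706 with 66.3 and Zfp330 with 55.0. The Zfp706 value rested on the library that stood apart, with 693 CPM there against 180, 148 and 151 CPM in the other polysomal ASP shSCR libraries, and without replicate 1 Zfp706 was at 36.1 CPM per kb, below Zfp330 at 58.1. Zfp598 is the ubiquitin ligase that marks collided ribosomes. Together the 118 genes took a small share of all counts. It was 0.382% ± 0.017 (SD, n = 4) in the polysomal and 0.410% ± 0.014 in the sub-polysomal ASP shSCR libraries. In ASP shDHPS it was 0.343% ± 0.020 and 0.430% ± 0.005, in ASP shGRIN2D 0.382% ± 0.026 and 0.428% ± 0.027, and in NoASP shSCR 0.373% ± 0.024 and 0.420% ± 0.025, so the polysomal mean was below the sub-polysomal mean in every condition.

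The first comparison asks whether silencing Dhps moved these mRNAs on or off polysomes. The 118 genes spread to both sides, with more of them lower: the log2 difference in ratio, ASP shDHPS minus ASP shSCR, was negative for 69 and positive for 49, with a median of −0.15 and quartiles of −0.64 and 0.23. Negative signs also outnumbered positive ones in the other comparisons: ASP shGRIN2D gave 75 negative and 43 positive and NoASP shSCR 68 and 50 against the same control pellets. In percent, the 118 genes were negative for 58.5% in ASP shDHPS, 63.6% in ASP shGRIN2D and 57.6% in NoASP shSCR, beside 48.4%, 46.9% and 46.0% of the genes with a mean count of 200 or more. Without replicate 1 of ASP shSCR the surplus was smaller or absent, with 62 negative and 56 positive in ASP shDHPS, 65 and 53 in ASP shGRIN2D and 59 and 59 in NoASP shSCR, or 52.5%, 55.1% and 50% negative beside 46.1%, 46.7% and 49.1% of the genes with a mean count of 200 or more. The median over all genes was −0.01, and over the genes with a mean count of 200 or more it was 0.02. One of the 118 genes, Zfp984, was past an adjusted p of 0.05 (edgeR quasi-likelihood test, Benjamini-Hochberg over 17757 genes), where 37 genes, all lower, or 0.208% of all genes were with this test. At an unadjusted p under 0.05, 36 of the genes were lower and 9 higher, where the genes with a mean count of 200 or more gave 13% lower and 7.88% higher. The pellets of the groups did not overlap for 15 genes that were lower and 4 that were higher, against 6.76% and 2.75% of the genes with a mean count of 200 or more.

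**Figure D1:**
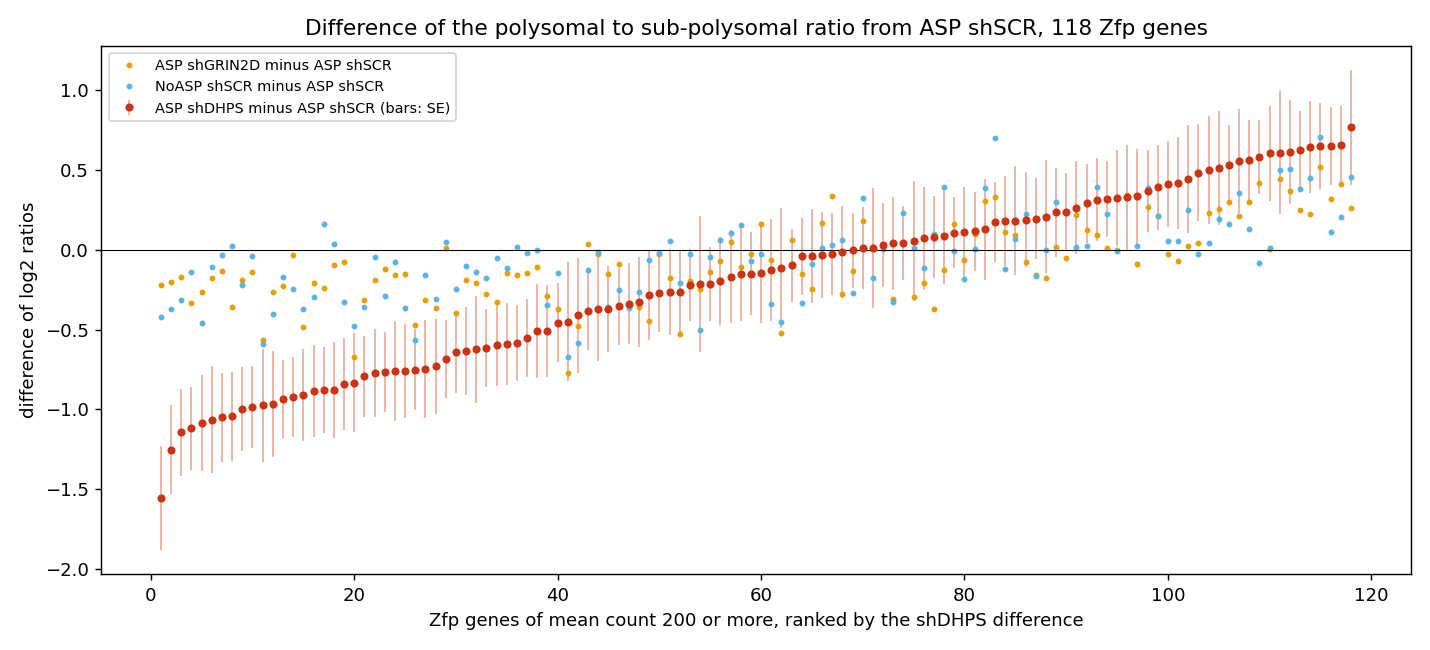
Log2 difference in polysomal over sub-polysomal ratio, ASP shDHPS minus ASP shSCR, for each of the 118 Zfp genes, ordered by difference (bars are the standard error of the edgeR fit), with the differences of ASP shGRIN2D and NoASP shSCR from ASP shSCR as smaller points at the same gene. The ASP shDHPS values run from −1.55 for Zfp984 to 0.77 for Zfp622, and 69 of them lie below 0.

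The number of genes called depended on the test and on the libraries. With one pellet left out in turn, the genes past the threshold numbered 0 to 83 in the whole table. Without replicate 1 of ASP shSCR, 0 of the 118 genes were past the threshold with edgeR and the median was −0.11, with 32 genes lower and 13 higher at an unadjusted p under 0.05, against 12.6% and 8.45% of the genes with a mean count of 200 or more. The pellets then did not overlap for 20 lower and 9 higher genes, against 1006 and 457 of those 8778 genes. DESeq2's Wald test on all libraries called 13 of the 118, all lower, or 11% of them. It called genes in both directions in the whole table, 436 lower and 228 higher, and among the genes with a mean count of 200 or more 4.31% were lower and 2.39% higher. The 13 were 9 of the 10 lowest genes described below, all but Zfp770, and Zfp148, Zfp260, Zfp462 and Zfp451.

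Zfp984 had the lowest difference. Its log2 ratios in the ASP shSCR pellets were 0.12, 0.27, −0.33 and −1.05, and in the ASP shDHPS pellets −2.46, −1.33, −1.43 and −1.94. All ASP shDHPS pellets were below all ASP shSCR pellets, and the ratio fell by 1.55 (SE 0.33, edgeR adjusted p = 0.0443). Its polysomal level was 7.78, 12.2, 14.7 and 6.55 CPM in ASP shSCR and 2.78, 6.42, 4.93 and 3.58 CPM in ASP shDHPS. Its sub-polysomal level was 7.17, 10.0, 18.5 and 13.6 CPM in ASP shSCR and 15.8, 16.3, 13.5 and 14.1 CPM in ASP shDHPS. The polysomal values did not overlap and the sub-polysomal ones did. Without replicate 1 of ASP shSCR the difference was −1.40 and the adjusted p 0.0646 (edgeR), and when each of the 8 pellets was left out in turn the call was kept only without replicate 2 of ASP shDHPS. Of its transcript, 69.6% of the 31-base stretches also occur in transcripts of other genes, most often Gm13212, so how Salmon shared reads among them makes this gene's value uncertain.

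Zfp948 came next. Its log2 ratios were 0.87, 1.44, 0.72 and 0.39 in ASP shSCR and −0.86, 0.22, −0.68 and −0.29 in ASP shDHPS, without overlap. The difference was −1.25 (SE 0.28) with an edgeR adjusted p of 0.0534, and 4.37% of its 31-base stretches were shared. Both Zfp984 and Zfp948 encode a KRAB-like stretch, and neither of the 2 following genes does.

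Zfp292 and Zfp644 were close behind. Zfp292 is a large transcription factor with many fingers, and its ratios of 0.65, −0.14, −0.36 and 0.33 in ASP shSCR stood against −1.24, −1.03, −1.04 and −0.78 in ASP shDHPS. Zfp644, a partner of the H3K9 methyltransferases G9a and GLP, had ratios of 0.84, 0.16, 0.08 and 0.36 against −1.29, −0.37, −0.96 and −0.40. The groups did not overlap for either gene. The differences were −1.14 (SE 0.27, edgeR adjusted p = 0.0591) for Zfp292 and −1.12 (SE 0.26, edgeR adjusted p = 0.0540) for Zfp644, so neither was past the threshold with edgeR, while DESeq2's adjusted p was 0.0102 and 0.00660.

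The other 6 of the 10 lowest genes had differences between −1.08 and −0.99 and edgeR adjusted p from 0.0792 to 0.146. Zfp318 (−1.05), Zfp638 (−1.04), Zfp397 (−0.997) and Zfp654 (−0.99) did not overlap between the groups. Zfp386 (−1.08), which has a KRAB-like stretch, and Zfp770 (−1.06) did. Zfp318 is known for its part in making IgD by alternative processing in B cells, and Zfp638 for binding nuclear RNA and silencing unintegrated retroviral DNA.

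**Figure D2:**
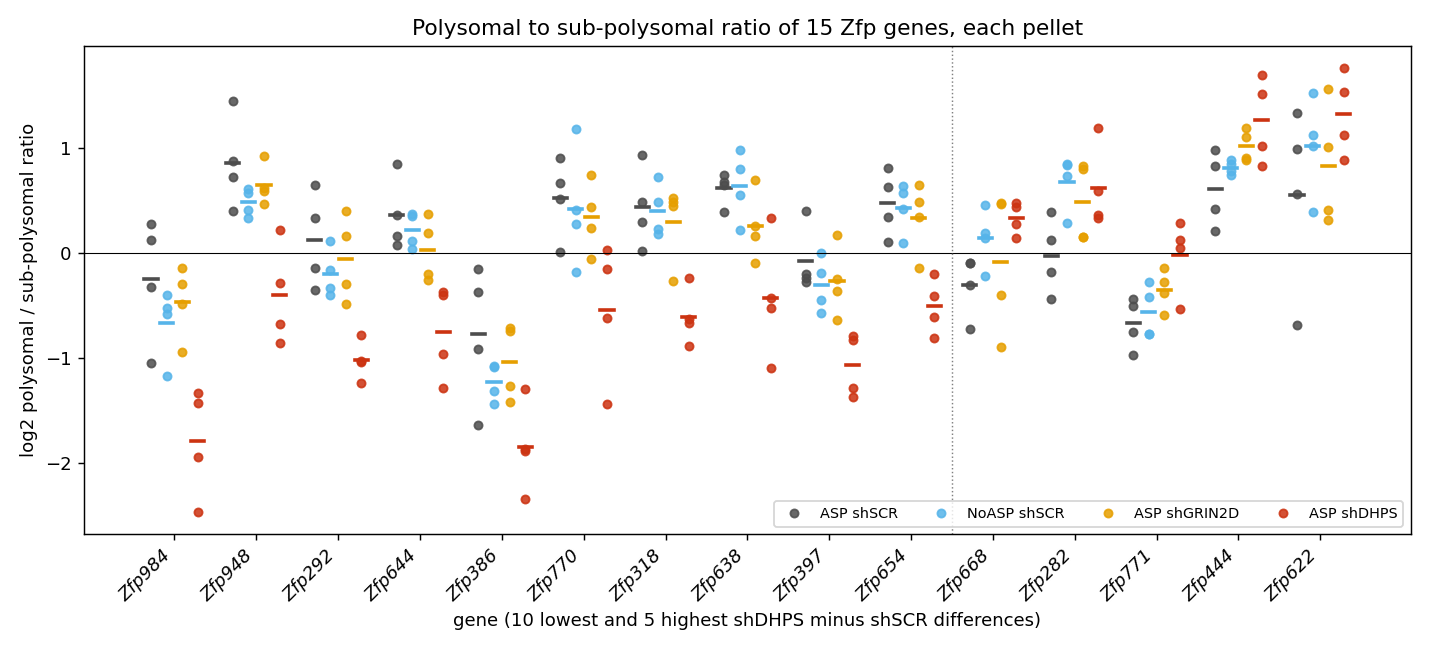
Log2 polysomal over sub-polysomal ratio in each pellet for the 15 Zfp genes with the lowest and highest differences, by condition (points are pellets, n = 4 each, and bars are means). In Zfp984 all 4 ASP shDHPS pellets, at −2.46 to −1.33, lie below the other conditions, whose lowest pellet is at −1.17.

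At the other end were Zfp622, Zfp444, Zfp771, Zfp282 and Zfp668, and none of them was past the threshold. Zfp622, which acts in the maturation of the 60S ribosomal subunit, had ratios of 0.56, −0.69, 1.33 and 0.99 in ASP shSCR and 1.76, 0.89, 1.12 and 1.52 in ASP shDHPS. These groups overlapped, and the difference of 0.77 (SE 0.36) had an edgeR adjusted p of 0.344 and was 0.38 without replicate 2 of ASP shSCR. Zfp668, known for a role in DNA repair, had ratios of −0.31, −0.73, −0.10 and −0.09 in ASP shSCR and 0.47, 0.14, 0.28 and 0.43 in ASP shDHPS. Its groups did not overlap, and the difference of 0.64 (SE 0.29) had an edgeR adjusted p of 0.320. Zfp444, Zfp771 and Zfp282 had differences of 0.66, 0.65 and 0.65, with overlap and edgeR adjusted p from 0.224 to 0.271.

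The next step was to see which fraction carried the differences in ratio. For the 36 genes with a lower ratio at an unadjusted p under 0.05, the median log2 difference in level between ASP shDHPS and ASP shSCR was 0.32 in the sub-polysomal fraction (30 of 36 positive) and −0.62 in the polysomal fraction (35 of 36 negative). For the 9 genes with a higher ratio it was −0.20 in the sub-polysomal fraction (9 of 9 negative) and 0.41 in the polysomal fraction (8 of 9 positive). The genes were grouped by the ratio of these same libraries, so the opposite signs are a description.

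**Figure D3:**
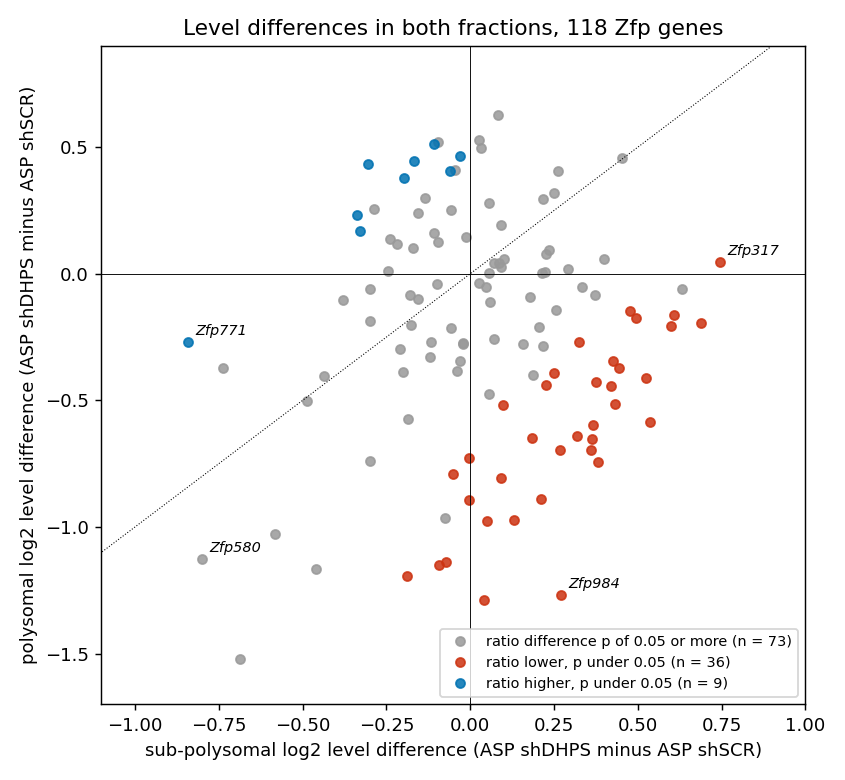
Log2 difference in level, ASP shDHPS minus ASP shSCR, in the sub-polysomal fraction against the polysomal fraction, with each Zfp gene a point marked by the side of its ratio at an unadjusted p of 0.05. The 36 genes with a lower ratio have medians of 0.32 and −0.62 in the sub-polysomal and polysomal fractions.

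Tested gene by gene within the sub-polysomal fraction, 3 of the 118 genes changed with Dhps silencing (edgeR adjusted p under 0.05), where 251 genes or 1.41% of all genes did. Zfp771 fell from 26.4, 52.7, 21.8 and 27.9 CPM in ASP shSCR to 17.3, 18.6, 17.8 and 18.6 CPM, a log2 difference of −0.84 (SE 0.21, edgeR adjusted p = 0.0375). Zfp580 fell from 21.7, 36.2, 21.8 and 28.9 CPM to 14.5, 19.4, 13.7 and 14.9 CPM (−0.80, SE 0.19, edgeR adjusted p = 0.0292). Zfp317, which has a KRAB-like stretch, rose from 13.7, 12.9, 15.7 and 17.1 CPM to 35.2, 21.3, 24.6 and 18.5 CPM (0.75, SE 0.19, edgeR adjusted p = 0.0394). The groups did not overlap for any of the 3. Replicate 2 of ASP shSCR had the highest level of Zfp771 and of Zfp580, and without it none of the 118 genes was called, as was also so without replicate 1 or replicate 3 of ASP shDHPS. In the 8 fits that each left out a pellet the lowest and highest log2 differences were −0.99 and −0.49 for Zfp771, −0.93 and −0.62 for Zfp580 and 0.53 and 0.86 for Zfp317.

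Over the 118 genes the median sub-polysomal difference was 0.05, and it ran from 0.0021 to 0.086 over the 8 fits that each left out a pellet. At an unadjusted p under 0.05, 9 were lower and 16 higher, where genes with a mean count of 200 or more gave 9.58% and 11%. Without replicate 1 of ASP shSCR the median was 0.0021, with 9 lower and 12 higher, against 8.5% and 8.69% of the genes at that depth. In the polysomal fraction none of the 118 genes was past the threshold with edgeR (0.169% of all genes were, and DESeq2 called 13 of the 118 beside 3.12% of all genes), the median was −0.19, and 28 were lower and 3 higher at an unadjusted p under 0.05, against 16% and 5.48% of the genes with a mean count of 200 or more. Without replicate 1 of ASP shSCR the polysomal median was −0.06 and 2 of the 118 genes were past the threshold, with 21 lower and 3 higher at an unadjusted p under 0.05 against 10.4% and 6.58%, beside 131 genes of the whole table, and without replicate 3 of ASP shSCR 4 were beside 304. Of the 8 epithelial markers, 4 keratins fell in the sub-polysomal fraction: Krt19 by 1.04, Krt18 by 0.995, Krt14 by 0.78 and Krt8 by 0.74 on the log2 scale (edgeR adjusted p = 0.00221, 0.0320, 0.00461 and 0.0490). The Krt18 value leaned on replicate 2 of ASP shSCR, with 2088 CPM against 1079, 799 and 931 CPM in replicates 1, 3 and 4. The other 4 epithelial markers were not past the threshold in the sub-polysomal fraction, with −0.54 for Epcam, 0.29 for Cdh1, 0.07 for Cldn3 and 0.01 for Cldn4 (edgeR adjusted p from 0.138 to 0.989). No epithelial marker was past it in the polysomal fraction, where Cldn3 differed by 0.82 (edgeR adjusted p = 0.0983), and the leukocyte marker Cd68 differed by 0.94 there (edgeR adjusted p = 0.0684), without overlap for either. The part of these markers in the Zfp levels was not tested.

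The same 118 genes were then read in the other comparisons, which use the same ASP shSCR pellets as control. For ASP shGRIN2D minus ASP shSCR none was past the threshold in ratio with edgeR or DESeq2, and no gene of the table was (0% of all genes). At an unadjusted p under 0.05, 2 were lower and 0 higher, where genes with a mean count of 200 or more gave 2.07% and 1.58%, and the median was −0.11, which became −0.033 without replicate 1 of ASP shSCR and ran from −0.181 to −0.033 over the 8 fits that each left out a pellet. Leaving out replicate 1 of ASP shSCR, 2 were lower and 1 higher, against 0.581% and 0.786%. With all pellets the 2 were Zfp810 (−0.77, SE 0.37) and Zfp652 (−0.67, SE 0.31), each with an edgeR adjusted p of 1. Without added aspartate, NoASP shSCR minus ASP shSCR, again none of the genes was past the threshold with either tool (0% of all genes), with 1 lower and 2 higher at an unadjusted p under 0.05 against 0.832% and 0.547% of the genes with a mean count of 200 or more, and a median of −0.03, which became −0.0091 without replicate 1 of ASP shSCR and ran from −0.083 to −0.0091 over the 8 fits. With replicate 1 of ASP shSCR left out, 1 was lower and 3 higher, against 0.285% and 0.342%. In none of these fits was one of the 118 genes past the threshold with edgeR, in either comparison. With all pellets the 3 genes were Zfp568 (−0.56, SE 0.25), Zfp646 (0.70, SE 0.25) and Zfp282 (0.71, SE 0.27), each with an edgeR adjusted p of 1.

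Set side by side, Zfp984 differed by −1.55 in ASP shDHPS, −0.22 in ASP shGRIN2D and −0.42 in NoASP shSCR, each against ASP shSCR. Zfp948 differed by −1.25, −0.20 and −0.37, and Zfp644 by −1.12, −0.33 and −0.14. The 2 knockdowns were also compared directly. For ASP shDHPS minus ASP shGRIN2D none of the 118 genes was past the threshold with edgeR or DESeq2, where 0.00563% of all genes were with edgeR. At an unadjusted p under 0.05, 21 genes were lower and 0 higher, against 7.48% and 0.98% of the genes with a mean count of 200 or more, and the pellets of 12 genes were lower without overlap, against 3.53%. Zfp984 differed by −1.33 (edgeR adjusted p = 0.286). A difference between the knockdowns was therefore not shown for any single gene of the 118.

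In the levels within a fraction, none of the 118 genes was past the threshold with edgeR for ASP shGRIN2D or NoASP shSCR against ASP shSCR. At an unadjusted p under 0.05 in the sub-polysomal fraction, 4 genes were lower and 10 higher in ASP shGRIN2D, against 6.94% and 6.25% of the genes with a mean count of 200 or more, and 8 lower and 3 higher in NoASP shSCR, against 2.23% and 2.45%. In the polysomal fraction 6 were lower and 0 higher in ASP shGRIN2D, against 8.56% and 1.37%, and 9 lower and 0 higher in NoASP shSCR, against 9.46% and 0.148%. Of all genes, 0.315% were past the threshold for ASP shGRIN2D in the sub-polysomal and 0.0169% in the polysomal fraction, and 0% for NoASP shSCR in both. The polysomal counts rested on replicate 1 of ASP shSCR: without it 0 of the 118 genes were lower or higher at an unadjusted p under 0.05 in either comparison, against 2.52% and 1.58% in ASP shGRIN2D and 0.228% and 0.0456% in NoASP shSCR. In the sub-polysomal fraction without it 5 were lower and 7 higher in ASP shGRIN2D, against 6.62% and 5.30%, and 10 lower and 2 higher in NoASP shSCR, against 2.55% and 1.36%. None of the 118 genes was then past the adjusted threshold either, and the median log2 difference was 0.0060 sub-polysomal and −0.028 polysomal in ASP shGRIN2D and −0.012 and −0.017 in NoASP shSCR.

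By pellet, the median log2 ratio of the 118 genes was −0.37, −0.23, −0.46 and −0.31 in ASP shDHPS, a mean of −0.34 ± 0.10 (SD, n = 4). It was −0.11 ± 0.05 in NoASP shSCR and −0.17 ± 0.13 in ASP shGRIN2D. The ASP shDHPS pellets overlapped the ASP shSCR pellets, because ASP shSCR replicate 2 was at −0.36. The genes with a mean ratio above 0 numbered 54 in ASP shSCR, 53 in NoASP shSCR, 48 in ASP shGRIN2D and 35 in ASP shDHPS, where 55.3%, 57.0%, 56.4% and 54.2% of the genes with a mean count of 200 or more were above 0.

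What the genes on either side share beyond the rule was examined in their transcripts. A GENCODE M21 coding transcript (GRCm38) was found for 117 of the 118 genes, and Zfp469 was not matched. A C2H2 pattern occurred at least once in 113 of the 117 predicted proteins, with a median of 8 and a range of 0 to 34 matches, and 46 had 10 or more. Transcript GC content had a median of 49.8% (36.5% to 68.7%), and 35 of the gaps between one of the genes and the next on its chromosome were under 1 Mb.

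GC content ran along with the Dhps difference. Across the 117 genes Spearman's rank correlation between transcript GC and the difference in ratio was 0.80, and across the 8559 matched genes with a mean count of 200 or more it was 0.66. Genes of one set of libraries share those libraries and are not independent replicates. The 10 lowest genes had a median GC of 40.3% (36.5% to 44.96%) and the 5 highest 52.0% (51.2% to 68.7%). In 3 groups of 39 genes each, split by GC from low to high, the median difference was −0.76, −0.20 and 0.32, with 36, 28 and 5 genes negative. Other genes with a mean count of 200 or more in the same GC ranges had medians of −0.44, 0.01 and 0.38. For the other comparisons the rank correlation across the 117 genes was 0.45 for ASP shGRIN2D and 0.41 for NoASP shSCR, each against ASP shSCR, and 0.79 for ASP shDHPS against ASP shGRIN2D.

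**Figure D4:**
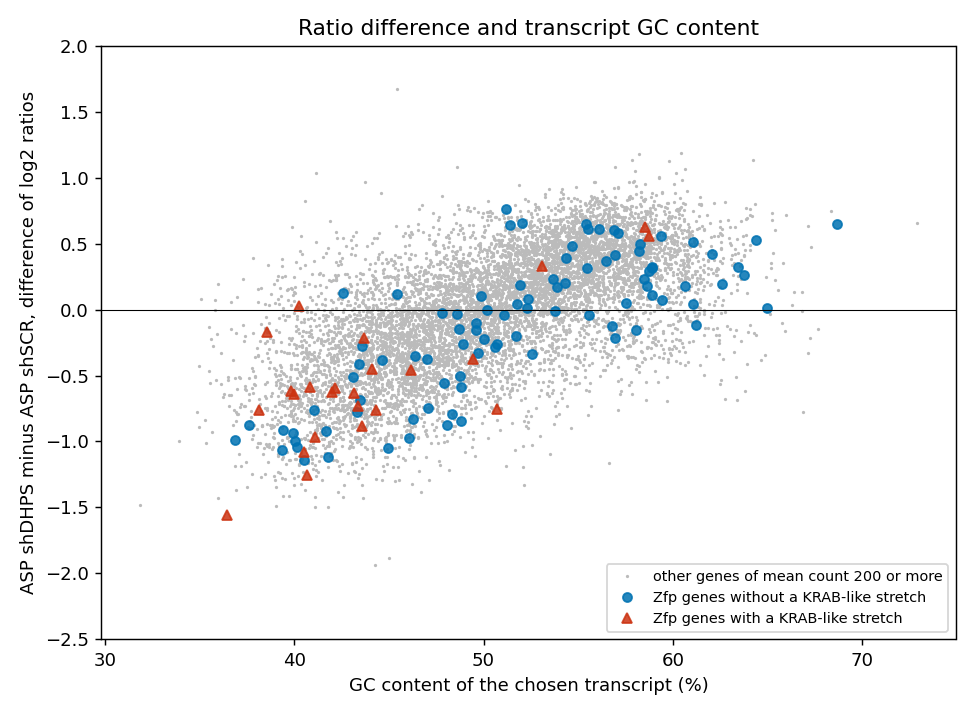
Difference in log2 ratio, ASP shDHPS minus ASP shSCR, against transcript GC content in percent for the 117 matched Zfp genes (coloured points) over 8442 other genes with a mean count of 200 or more (grey, 1 of them outside the axis). The Zfp genes rise from a median of −0.76 in the 39 with the lowest GC to 0.32 in the 39 with the highest.

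Single pellets showed where the relation lay. The rank correlation between GC and the log2 ratio across the 117 genes was −0.38, −0.61, −0.28 and −0.38 in the ASP shSCR pellets and 0.39, −0.07, 0.28 and −0.23 in the ASP shDHPS pellets. Every ASP shDHPS pellet was above every ASP shSCR pellet. In ASP shGRIN2D the correlation was −0.08, −0.36, −0.53 and −0.18, and in NoASP shSCR −0.16, −0.35, −0.38 and −0.31. When a trend with GC was removed in each library, an alternative chosen after the data were seen, 0 of the genes were past the threshold with edgeR, with 15 lower and 3 higher at an unadjusted p under 0.05, against 5.58% and 5.05% of the genes with a mean count of 200 or more in the same fit. The differences were then negative for 84 and positive for 33 of the 117 genes, their SD dropped from 0.55 to 0.32, and the rank correlation with GC was 0.30. Zfp984 differed by −0.90 and Zfp622 by 0.69, where the main fit gave −1.55 and 0.77. The median over all genes in that fit was −0.0081, and the share of all genes with a negative sign is not given here. Whether GC content, the making of the libraries or another property that goes with GC bears on the ratio was not tested.

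**Figure D5:**
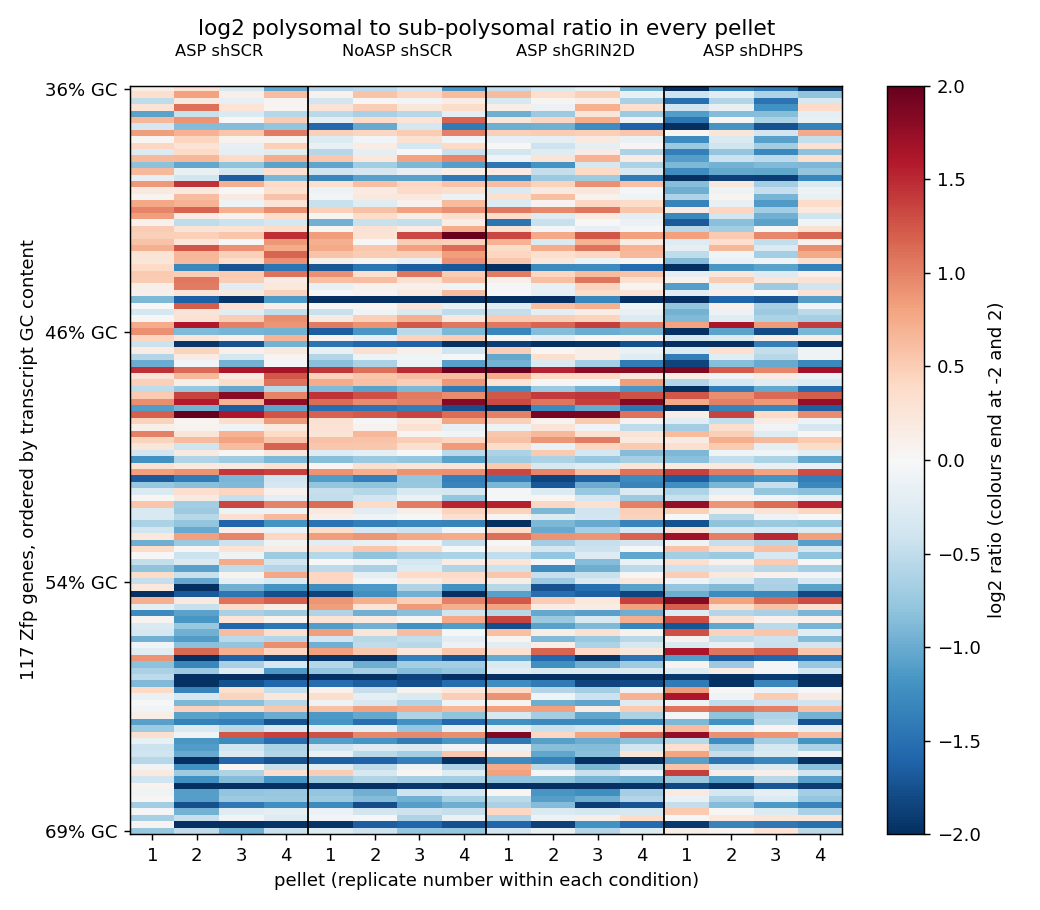
Log2 polysomal over sub-polysomal ratio of the 117 matched Zfp genes in each of the 16 pellets (columns, by condition and replicate), with genes ordered by the GC content of their transcript from 36.5% at the top to 68.7% at the bottom and colours ending at −2 and 2. Genes of low GC tend to be redder (higher ratio) than genes of high GC in ASP shSCR, where the rank correlation between GC and ratio is −0.28 to −0.61. Some of them have a negative mean ratio there, such as Zfp984 with −0.25 and Zfp386 with −0.77. In ASP shDHPS, where the rank correlation is −0.23 to 0.39, many genes of low GC are paler or blue.

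A short stretch like the KRAB A box was encoded by a coding transcript of 24 of the 117 genes. The search used a single fixed pattern, so genes without a match were not shown to lack a KRAB domain. Their comparison is by this stretch alone. Of the 24 genes with the stretch, 20 had a negative difference in ASP shDHPS, with a median of −0.62, against 49 of the 93 other genes and a median of −0.03. The sub-polysomal and polysomal levels of the 24 had median differences of 0.28 and −0.27, against 0.03 and −0.11 for the other 93. GC content differed as well, with medians of 42.7% and 51.7% and overlapping ranges of 36.5% to 58.7% and 36.9% to 68.7%. Within the 39 genes of lowest GC the median difference was −0.64 for the 18 with the stretch and −0.91 for the 21 without. In the middle group it was −0.41 for 4 genes with and −0.15 for 35 without, and in the group of highest GC 0.59 for 2 with and 0.32 for 37 without. Of the 10 lowest genes 3 carried the stretch, and of the 5 highest 0 did.

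Runs of 3 prolines were also counted, since eIF5A is known for them. They occurred in 46 of the 117 predicted proteins, or 39.3%, against 25.7% of the genes with a mean count of 200 or more. The median difference in ASP shDHPS was 0.06 for the 46 genes with a run and −0.37 for the 71 without, and the median GC was 54.9% and 46.1%. In the genes with a mean count of 200 or more the medians were 0.05 with a run and 0.01 without.

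The genes were also read by known function. At an unadjusted p under 0.05, the background in the Dhps comparison is again 13% of genes lower and 7.88% higher at a mean count of 200 or more. Of 10 genes whose proteins act on RNA, ribosomes or the spindle, 3 were lower and 1 higher in ASP shDHPS at an unadjusted p under 0.05, none was past the adjusted threshold with edgeR, and the median was −0.22. Zfp638 is described above, Zfp326, a part of the DBIRD complex that links transcription and splicing, differed by −0.68 (edgeR adjusted p = 0.205), and the RNA-binding protein gene Zfp106 by −0.74 (edgeR adjusted p = 0.271). Zfp598 differed by 0.07 (SE 0.32). Of 11 genes known as activators, repressors or corepressor partners, 3 were lower and 0 higher, with a median of −0.15. Among them, Zfp148, which binds GC-rich promoters, differed by −0.93 (edgeR adjusted p = 0.0808) and Zfp462, a heterochromatin regulator, by −0.88 (edgeR adjusted p = 0.136).

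The partners of KRAB proteins were taken from a list of 25 corepressor and heterochromatin genes. One of them was past the threshold in the Dhps comparison. Atrx, a chromatin remodeller that deposits histone H3.3 at heterochromatin, had log2 ratios of 0.99, 0.71, 0.52 and 0.73 in ASP shSCR and −0.70, −0.52, −0.84 and −0.12 in ASP shDHPS. The groups did not overlap, and the ratio fell by 1.29 (SE 0.24, edgeR adjusted p = 0.0376). In fits that each left out a pellet its difference was between −1.43 and −1.16, with an edgeR adjusted p between 0.0326 and 0.214, above 0.05 without replicates 2 or 4 of ASP shSCR or replicates 1, 3 or 4 of ASP shDHPS. Over all 16 alternative fits, with DESeq2 and the removal of the GC trend among them, the Atrx difference ran from −1.43 to −0.71. Of the 25 genes, 24 of which had a mean count of 200 or more, 5 were lower and 1 higher at an unadjusted p under 0.05 (against 13% and 7.88% of the genes with a mean count of 200 or more), and the median was −0.23. Morc3, the HUSH subunit Tasor and the Setdb1 regulator Resf1 differed by −1.02, −1.14 and −0.90 (edgeR adjusted p = 0.0631, 0.0844 and 0.0750). Trim28 differed by 0.78 (SE 0.37, edgeR adjusted p = 0.356) and Setdb1 by −0.23 (SE 0.25, edgeR adjusted p = 0.739), with overlap for both. Over the fits that each left out a pellet Trim28 ran from 0.49 to 1.01 and Setdb1 from −0.35 to −0.073, the former lowest without replicate 1 of ASP shDHPS and the latter nearest 0 without replicate 4 of ASP shSCR.

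Related zinc finger families gave a frame for these counts. With a mean count of 200 or more there were 23 Zbtb genes, of which 1 was past the threshold (Zbtb41, −1.36, edgeR adjusted p = 0.0443, chosen after its value was seen) and 9 were lower and 2 higher at an unadjusted p under 0.05, with a median of −0.28, where 13% and 7.88% of all genes at that depth were. The 13 Klf and Sp genes had 6 lower and 0 higher and a median of −0.49, the 12 Zfp genes with a shorter number 6 and 0 and −0.59, and the 4 Zscan genes 1 and 0 and −0.27. Among the 162 Zfp genes under a mean count of 200, 37 were lower and 2 higher, with a median of −0.57, against 4.43% and 2.04% of all genes under that count, and none was past the threshold with edgeR. Differences between these families and the 118 genes were not tested.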

How the data were processed

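Counts per gene were deposited as Salmon estimates that the authors rounded to whole numbers, without normalization. Per the submitters' processing notes and the study's methods, paired reads of a stranded mRNA library were trimmed with Trim Galore 0.6.6, checked with FastQC 0.11.9, mapped to GRCm39 with STAR 2.6.1 and quantified with Salmon 1.4.0. The authors kept 17757 genes and used DESeq2 1.34.0. Their deposited log2 differences, p-values and scores were not used.

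The members and lists were chosen with earlier results of these data known. In R 4.3.3, edgeR 4.0.16 (TMM, quasi-likelihood F-test, two-sided) was fitted over all 32 libraries with 16 pellet terms and one ratio term per condition, or with condition alone within the 16 libraries of a fraction. P-values were adjusted by Benjamini-Hochberg over 17757 genes (threshold 0.05). Pellet ratios used TMM log2 CPM with a prior count of 2. The polysomal and sub-polysomal library of a pellet are a pair. The named genes were the 10 lowest and 5 highest differences in the Dhps comparison, up to 3 genes per direction elsewhere, and the extremes in ratio and level. Genes at an unadjusted p under 0.05 were named after their values were seen. DESeq2 1.42.0 and other normalizations, filters and fits were alternatives. Sequences and GC content came from GENCODE M21 on GRCm38. The counting model was tested on simulated data, in which most changes of the larger size were recovered, most of the smaller size were missed in the ratio fit but recovered in the sub-polysomal level fit, and false calls passed the nominal share where the spread differed between genes.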

Additional observations from a re-analysis of the deposited data

Results flagged for a closer look

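Of the pellet values, 4 stood far from the other 3 pellets of their group, in a check of 112 groups of 4 pellets in which chance alone flags about 1 in 20. Zfp580 had a log2 ratio of 0.0501 in ASP shSCR replicate 1, where the other pellets were between −2.26 and −1.96, and Zfp523 had 0.0689 there, where the others were between −2.47 and −2.28. Both are in the pellet whose polysomal library stood apart. Zfp397 had 0.40 in ASP shSCR replicate 2, where the others were between −0.27 and −0.20, and Zfp318 had −0.27 in ASP shGRIN2D replicate 4, where the others were between 0.45 and 0.52.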

How the results depend on the processing

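Counts here are of the 118 Zfp genes, except at a mean count of 100 or more (166 genes) or 500 or more (52 genes, which leaves out the 4 genes called). In the ratio of ASP shDHPS against ASP shSCR, where 1 gene was past the adjusted threshold, 0 were with DESeq2 size factors, without a pellet term, with only the compared conditions in the fit, with GC trend removed per library or at a mean count of 500 or more, 2 with a robust quasi-likelihood fit (55 in the whole table), 10 with at least 10 counts in every library (266 in the table) and 13 with DESeq2's Wald test (664 of all genes). At an unadjusted p under 0.05, 15 genes were lower and 3 higher with GC trend removed, against 5.58% and 5.05% of the genes with a mean count of 200 or more. With only the compared conditions 2 genes were higher, a count given here without the share of all genes in that fit. In ASP shDHPS against ASP shGRIN2D at an unadjusted p under 0.05, 1 was higher under DESeq2 size factors, the filter, DESeq2's test, no pellet term and the replicate block. With GC trend removed 6 were lower. In the main fit 7.48% of the genes with a mean count of 200 or more were lower and 0.98% higher. The shares in these alternative fits are not given, so their counts are a description. At a mean count of 100 or more 1 passed the adjusted threshold, Zfp946 with a mean count of 108, outside the 118. In sub-polysomal levels of ASP shDHPS 5 passed with the filter (316 of all genes), 8 with DESeq2 (652 of all genes) and 0 at a mean count of 500 or more, and in polysomal levels 13 passed with DESeq2 (554 of all genes). Sub-polysomal medians were 0.10 in ASP shGRIN2D at a mean count of 100 or more and −0.035 in NoASP shSCR at 500 or more. The causes were not tested.

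The replicate block added the replicate number, which pairs no pellets across conditions in the labels: same-numbered pellets of different conditions correlated with a median of 0.17 (15 of 24 pairs over 0.1), and differently numbered ones with −0.063 (72 pairs). With the block 8 genes passed in the Dhps ratio (231 of all genes), 11 in sub-polysomal and 8 in polysomal levels of ASP shDHPS (758 and 405 of all genes), and 1 in sub-polysomal levels of ASP shGRIN2D (195 of all genes).

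With one pellet left out, the genes past the threshold in the Dhps ratio numbered 0 to 3 and those higher at an unadjusted p under 0.05 numbered 4 to 13. Without replicate 1 of ASP shSCR 13 were higher, against 8.45% of the genes with a mean count of 200 or more. For the other pellets left out that share is not given. Against ASP shGRIN2D 12 to 25 were lower and 0 to 3 higher. In the fit on all pellets 7.48% of the genes with a mean count of 200 or more were lower and 0.98% higher. The shares in the fits that left out a pellet are not given, so this range is a description. In levels of ASP shDHPS 0 to 6 passed in the sub-polysomal fraction (80 to 370 of all genes) and 0 to 4 in the polysomal fraction (0 to 304 of all genes), where the median ran from −0.208 to −0.0604, and the sub-polysomal median of ASP shGRIN2D ran from 0.00600 to 0.0984. Of 348 values of named genes under an alternative, 285 kept their side of the threshold, 38 lost a call, 25 gained one and 0 changed sign. Most of these results had no call to lose in the main fit. In ratio, Zfp984 kept its call in 5 of 16 alternatives and Atrx in 7 of 16. In sub-polysomal level, Zfp317, Zfp580 and Zfp771 each kept theirs in 7 of 12. Dhps kept its polysomal call in 9 of 12 and its sub-polysomal call in 12 of 12. Most genes were named for the size of their difference, so the kept signs are a description. The rule set the depth of these genes, with a mean count of 200 or more, and no count was under 31.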
